A study of Rattus norvegicus with 24 samples.

Results

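The genes described here are 36 members of glycolysis and of the response to low oxygen, taken from a list of gene symbols: glucose transporters, hexokinases and the enzymes of upper and lower glycolysis, the genes that handle lactate and pyruvate, and the hypoxia-inducible factors with the prolyl hydroxylases and targets around them. Of these, 34 were found by symbol among the 32883 genes measured in rat urethra, while Gapdh and Car9 were not analysed here. Slc2a3, a glucose transporter, was listed at 0 in all 24 samples. The remaining 33 members were among the 16287 genes tested.

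Urethras came from female virgin 12-week-old Sprague-Dawley rats after simulated vaginal delivery (SVD), a pudendal nerve crush combined with vaginal distension, which every group received. The rats were then given an intra-aortic injection of saline, of allogeneic mesoangioblasts (MABsallo) or of allogeneic mesoangioblasts that overexpress VEGF (MABsallo-VEGF), and the urethra was taken 3d or 7d later, with 4 samples in each of 6 groups. Mesoangioblasts are vessel-associated progenitor cells; here they were grown from hind limb skeletal muscle of a donor rat, carried a lentiviral eGFP and luciferase reporter and, in MABsallo-VEGF, a second lentiviral vector for VEGF with a truncated CD34. All samples analysed came from injured rats, and the comparisons ask how cell treatment and time after injury changed the tissue. Recovery is marked in the labels for 2 samples, replicates 6 and 7 of MABsallo-VEGF at 7d. The labels give separate samples but not the rat behind each, so the p-values measure the spread between these samples.

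Glycolysis splits glucose into pyruvate in the cytosol, and pyruvate is then reduced to lactate or oxidised in mitochondria. When oxygen is scarce, hypoxia-inducible factors escape the prolyl hydroxylases that mark them for destruction and switch on glucose transporters, glycolytic enzymes and genes such as Adm and Ddit4. Skeletal muscle, of which the urethral sphincter is partly made, uses its own isoforms of several of these enzymes, among them Slc2a4, Pfkm, Pgam2 and Eno3, where most other cells use Slc2a1, Pfkl, Pgam1 and Eno1.

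Hypoxia-inducible factors bind DNA at a short core, ACGTG or GCGTG, and the 250 bases upstream of each gene start were searched for it on both strands in RefSeq sequence of the rat build GRCr8. Of the 33 members with an entry, 20 (60.6%) held the core. These 33 include Gapdh and Car9, so they are not the 33 members tested, and 31 of them were found in the expression data. Counted by entry, since some genes have several, 21 of 37 entries of members (56.8%) held it, against 36.7% of all 33469 entries. The core is short, and a match is a description of these letters and not a bound site. The upstream sequences of Slc2a1, Pfkfb3, Egln1 and Ddit4 are shown because these members changed below and carry the core. They were picked after their values were seen. Of the other members that passed below, Hk1, Pgam1, Slc16a1, Eno1, Ldha, Ldhb and Hif1a hold the core in at least 1 entry. Hk2, Pfkfb4, Pkm, Pdk4, Adm and Slc16a3 passed too and hold none. Capitals mark the core, which reads CACGT or CACGC where it lies on the opposite strand. In Pfkfb3 the core occurs on both strands in 1 overlapping stretch.
Slc2a1: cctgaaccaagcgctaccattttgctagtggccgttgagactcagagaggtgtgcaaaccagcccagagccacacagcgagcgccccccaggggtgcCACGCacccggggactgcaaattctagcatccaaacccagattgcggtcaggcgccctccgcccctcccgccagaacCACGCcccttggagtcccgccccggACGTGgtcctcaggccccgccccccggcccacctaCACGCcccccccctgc
Pfkfb3: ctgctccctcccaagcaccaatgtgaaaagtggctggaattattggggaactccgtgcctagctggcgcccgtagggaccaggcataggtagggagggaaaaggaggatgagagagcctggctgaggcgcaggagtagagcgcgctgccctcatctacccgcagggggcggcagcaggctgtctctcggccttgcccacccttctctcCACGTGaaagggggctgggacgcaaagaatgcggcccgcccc
Egln1: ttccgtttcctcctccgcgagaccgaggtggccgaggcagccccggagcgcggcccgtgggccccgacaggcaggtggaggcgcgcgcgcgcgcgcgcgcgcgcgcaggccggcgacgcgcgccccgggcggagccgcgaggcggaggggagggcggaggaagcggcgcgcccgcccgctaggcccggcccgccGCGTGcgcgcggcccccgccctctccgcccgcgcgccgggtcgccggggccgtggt
Ddit4: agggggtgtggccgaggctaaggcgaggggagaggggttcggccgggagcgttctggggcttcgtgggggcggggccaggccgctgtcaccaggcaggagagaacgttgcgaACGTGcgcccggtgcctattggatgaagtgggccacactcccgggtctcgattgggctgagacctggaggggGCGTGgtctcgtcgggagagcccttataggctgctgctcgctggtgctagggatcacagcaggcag
In GRCr8 these are chr5:138002272-138002521, plus strand (Slc2a1), chr17:71944683-71944932, plus strand (Pfkfb3), chr19:69804682-69804931, minus strand (Egln1) and chr20:28437038-28437287, minus strand (Ddit4). The expression values were made on another build, Rnor6.0, and no positions are given for them.

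Values are normalized counts, that is reads per gene divided by a size factor of the sample. Samples had 2170695 to 10166052 reads on genes, and 1 read was worth 1.67 to 9.23 normalized counts. The 3d samples of both cell-treated groups were the shallowest, with 2170695 to 4491900 reads in MABsallo and 3042531 to 4261098 in MABsallo-VEGF. A single gene, listed as AY172581.24, took 12.1% to 20.7% of the reads in MABsallo 3d and 15.6% to 20.6% in MABsallo-VEGF 3d replicates 1 to 3, but 3.46% in replicate 4. It took 7.31% in saline 3d replicate 6, 0.409% to 2.11% in the other saline 3d samples and 0.269% to 1.14% at 7d. The cell-treated samples of 3d differed in depth from those of saline 3d and of 7d, and most of them in this share too. What these did to the values cannot be told apart from treatment or time. By this share, saline 3d replicate 6 and MABsallo-VEGF 3d replicate 4 lay between the groups, and results at 3d are given with all 24 samples and with the 22 others. These samples were set apart after the data were seen. A wider difference without them can follow from that choice and is not separate support. Differences are in log2(normalized count + 1), and a gene passed when its adjusted p from limma was below 0.05. For low genes with samples at 0, this scale can give a larger or a smaller change than a count test. In MABsallo against saline at 3d, DESeq2 without shrinkage gave 3.60 for Hk1, smaller than the limma value below. For Pdk4 it gave 5.48, larger than the limma value below. Below, values follow the replicate order 6, 8, 9 and 10 for saline 3d and 1 to 4 for both cell-treated groups at 3d. At 7d the order is 1, 2, 3 and 5 for saline, 7.2, 9, 11 and 13 for MABsallo, and 6, 7, 11 and 12 for MABsallo-VEGF.

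**Figure D1:**
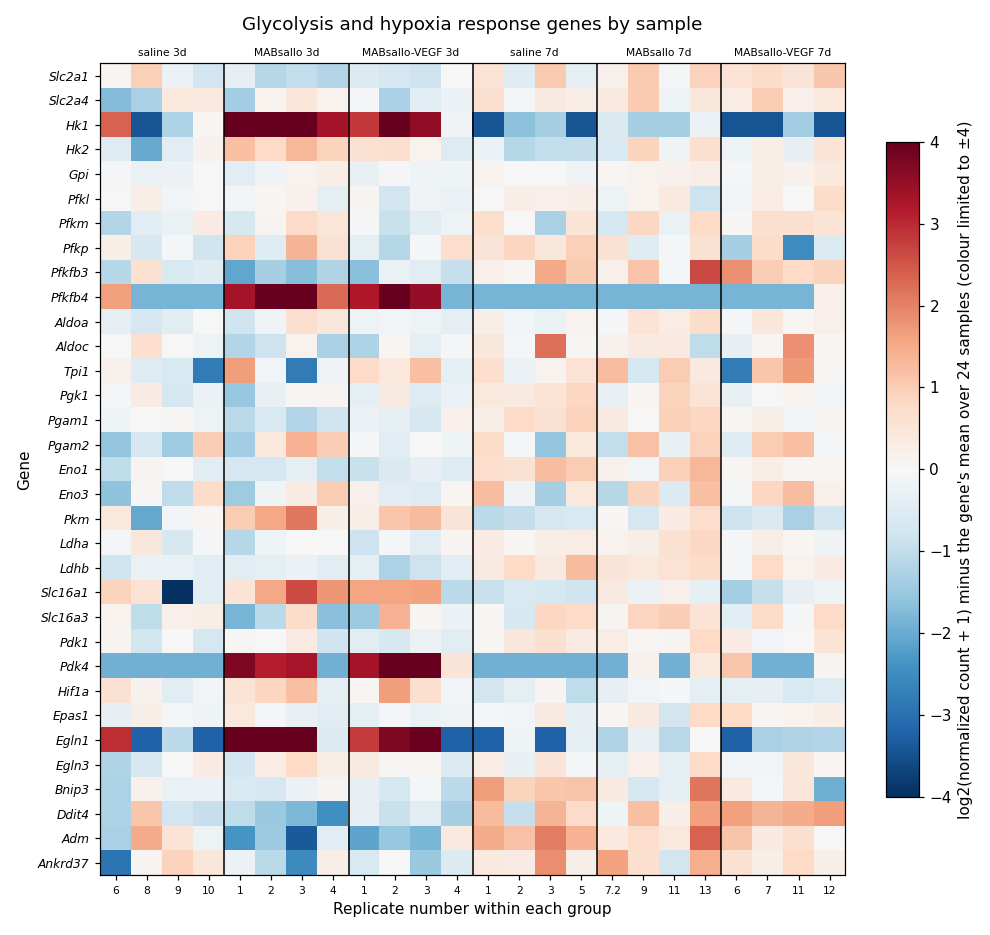
Heat map of the 33 members above 0 (rows) in the 24 samples (columns, 6 groups of 4). Colour gives log2(normalized count + 1) minus the mean of the gene over the 24 samples, limited to 4 in either direction; Hk1, Pfkfb4, Pdk4 and Egln1 stand out in red in most MABsallo and MABsallo-VEGF samples at 3d.

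The first question was whether MABsallo changed these genes at 3d. Of the 33 members, 9 passed against saline at 3d, 7 higher (Hk1, Hk2, Pfkfb4, Pkm, Slc16a1, Pdk4 and Egln1) and 2 lower (Pgam1 and Adm). Over all genes tested, 15.1% passed in this comparison, 10.7% higher and 4.48% lower. The median log2 difference was 0.23 over the members and 0.07 over all genes tested. Without saline 3d replicate 6 and MABsallo-VEGF 3d replicate 4, 10 members passed, 7 higher and 3 lower, against 22.6% of all genes, 15.8% higher and 6.82% lower. The count rested on single samples: it was 3 without saline 3d replicate 8, 4 without MABsallo 3d replicate 1 and 4 without MABsallo 3d replicate 3. It was 0 when these 2 groups were fitted without the others, with 5 genes passing in all. Scaling every sample to the same total gave 5 members higher and 5 lower. edgeR, which also changed the test and the filter and left Pfkfb4 and Pdk4 untested, gave 4 and 4. No called member changed direction under either. In bulk tissue, fewer cells of a type and less RNA per cell cannot be told apart.

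**Figure D2:**
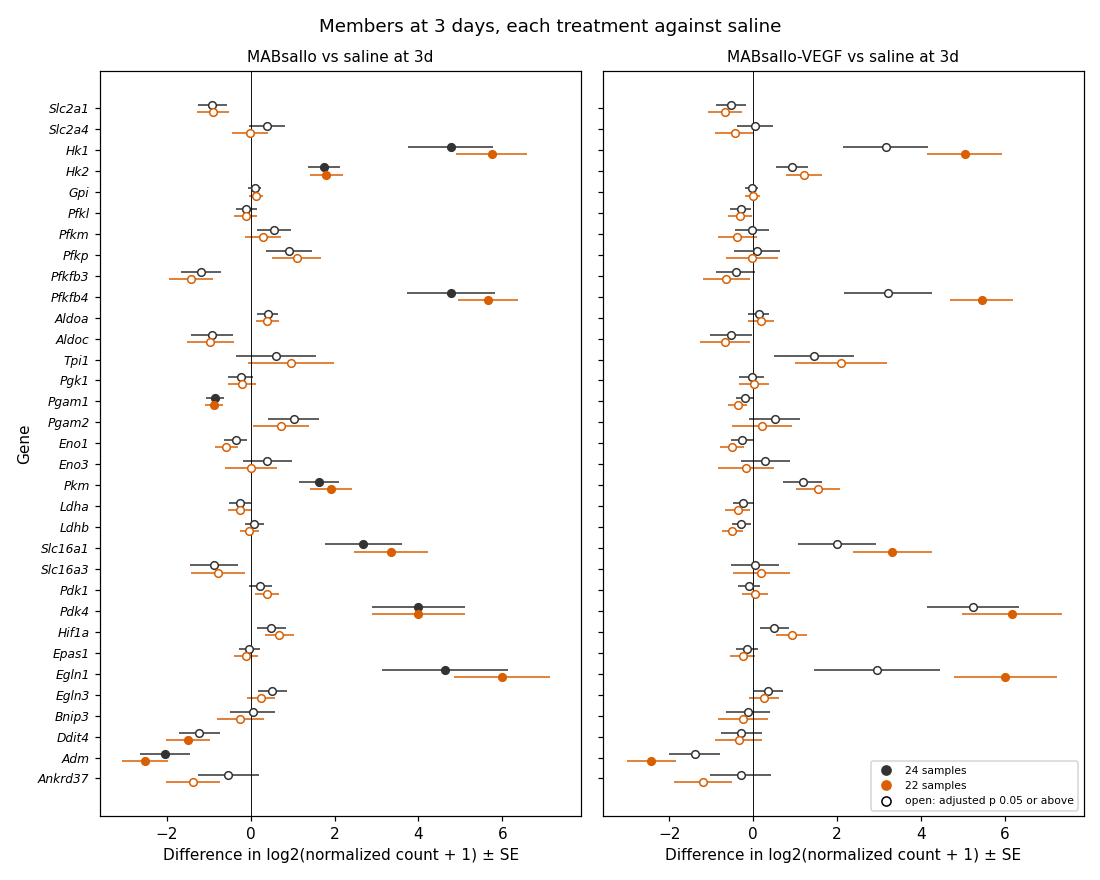
Differences from saline at 3d in log2(normalized count + 1) (x axis) with their SE for the 33 members tested (y axis), with 24 samples (black) and 22 samples (orange); filled points had an adjusted p below 0.05. With 24 samples 9 members are filled in the left panel and 0 in the right, and with 22 samples 10 and 6.

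Glucose enters cells through the transporters and is trapped by hexokinases. Hk2, the insulin-responsive hexokinase of muscle and fat, rose after MABsallo. At 3d Hk2 had normalized counts of 768, 270.5, 826 and 1249 in saline, 2535, 1887, 2788 and 2067 in MABsallo and 1692, 1709, 1226 and 779 in MABsallo-VEGF. Every MABsallo sample lay above every saline sample, a log2 difference of 1.75 (SE 0.38, adjusted p = 0.00799 from limma). At 7d its counts were 937, 498, 559 and 566 in saline, 731, 2033, 1001 and 1709.8 in MABsallo and 969, 1289, 881 and 1611 in MABsallo-VEGF, where the groups overlapped.

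Hk1, the hexokinase found in most tissues, also rose, at far lower counts. Counts of Hk1 at 3d were 55.1, 0, 3.57 and 10.6 in saline, 291, 202, 249 and 108 in MABsallo and 75.7, 192, 126 and 8.91 in MABsallo-VEGF. MABsallo did not overlap saline, a log2 difference of 4.77 (SE 1.01, adjusted p = 0.00739 from limma), and saline 3d replicate 6 was the highest of its group. At 7d no sample exceeded 3 reads: counts were 0, 2.49, 3.35 and 0 in saline, 6.19, 3.31, 3.34 and 8.30 in MABsallo and 0, 0, 3.10 and 0 in MABsallo-VEGF. Hk1 is used by most cells, and its low counts here are not read as its absence.

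Among the transporters, Slc2a1 (GLUT1, the carrier of most cells) had normalized counts at 3d of 1574, 2885, 1254 and 862 in saline, 1179, 673, 748 and 656 in MABsallo and 1011, 933, 827 and 1460.5 in MABsallo-VEGF. The groups overlapped, and the log2 difference between MABsallo and saline was -0.91 (SE 0.35, adjusted p = 0.0769 from limma); the count tests called it lower (adjusted p = 0.0446 from edgeR and 0.0413 from DESeq2). Slc2a4 (GLUT4, the insulin-responsive carrier) had 437, 596, 1951 and 1921 in saline, 554, 1597, 2022 and 1611 in MABsallo and 1395, 600.1, 1069.5 and 1233 in MABsallo-VEGF. Its difference was 0.39 (SE 0.43, adjusted p = 0.565 from limma), with saline 3d replicates 6 and 8 and MABsallo 3d replicate 1 low.

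Fructose 2,6-bisphosphate, the strongest activator of phosphofructokinase, is set by the enzymes of the Pfkfb family. Pfkfb4 rose from the limit of detection: counts at 3d were 10.3, 0, 0 and 0 in saline, 35.5, 98.5, 102 and 16.3 in MABsallo and 32.4, 58.3, 40.4 and 0 in MABsallo-VEGF. Saline had at most 3 reads in any sample, as did MABsallo replicate 4, and MABsallo was at least 5.81-fold higher, with a fitted log2 difference of 4.78 (SE 1.04, adjusted p = 0.00843 from limma). At 7d all but 1 of the 12 samples were at 0. Pfkfb3, the member of the family induced by hypoxia and growth signals, had 272, 917, 400.3 and 433 in saline, 142, 241, 185 and 260.4 in MABsallo and 189, 500.1, 444 and 321 in MABsallo-VEGF. Its difference of -1.18 (SE 0.47, adjusted p = 0.0916 from limma) did not pass, although MABsallo lay below saline in every sample.

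In lower glycolysis, Pgam1, the widely expressed phosphoglycerate mutase, fell after MABsallo. Pgam1 had normalized counts at 3d of 2386, 2693, 2784 and 2319 in saline, 1264, 1751, 1172 and 1546 in MABsallo and 2282, 2059, 1720.3 and 3063 in MABsallo-VEGF. MABsallo lay below every saline sample, a log2 difference of -0.84 (SE 0.21, adjusted p = 0.014 from limma). Pkm, the pyruvate kinase of most tissues outside the liver, rose, with 155, 27.4, 107 and 123 in saline, 234, 339, 499 and 136 in MABsallo and 135, 250.03, 277 and 165 in MABsallo-VEGF. Here the groups overlapped, since MABsallo replicate 4 lay below saline replicate 6, and the difference was 1.63 (SE 0.47, adjusted p = 0.0247 from limma). At 7d Pkm counts were 54.1, 59.7, 70.3 and 75.5 in saline, 121, 72.8, 145 and 191 in MABsallo and 65.3, 77.0, 46.5 and 69.4 in MABsallo-VEGF. Pkm counts are low for an enzyme of this abundance, and its level is not compared with that of other genes. Eno1, the widely expressed enolase, had 306, 658, 625 and 457 in saline, 391, 377, 471 and 315 in MABsallo and 329.8, 408, 489 and 432 in MABsallo-VEGF, a difference of -0.35 (SE 0.27, adjusted p = 0.398 from limma) with overlapping groups.

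At the branch from pyruvate, Pdk4, a kinase that shuts off pyruvate dehydrogenase in fasting muscle, was at 0 in every saline sample of 3d. Pdk4 counts were 49.7, 32.8, 36.9 and 0 in MABsallo and 37.8, 83.3, 111 and 4.45 in MABsallo-VEGF. The rise in MABsallo was at least 2.75-fold, with a fitted log2 difference of 4.0 (SE 1.10, adjusted p = 0.0203 from limma), and replicate 4 was at 0 as in saline. Slc16a1 (MCT1), a carrier of lactate and pyruvate, had 72.3, 58.8, 0 and 28.2 in saline, 56.8, 115, 240.0 and 136 in MABsallo and 119, 117, 121 and 17.8 in MABsallo-VEGF. It passed narrowly, at 2.69 (SE 0.92, adjusted p = 0.04997 from limma), with overlapping groups, and kept its call in 5 of 17 other settings. At 7d its counts were 20.3, 24.9, 23.4 and 22 in saline, 49.6, 33.1, 45.0 and 29.1 in MABsallo and 14.5, 20.0, 31.0 and 34.7 in MABsallo-VEGF.

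Neither subunit of lactate dehydrogenase passed at 3d. Ldha, the subunit that favours lactate, had 1016, 1469.9, 686 and 1045 in saline, 489.9, 952, 1071 and 1052 in MABsallo and 611, 1017, 782 and 1162 in MABsallo-VEGF, a difference of -0.26 (SE 0.26, adjusted p = 0.516 from limma). Ldhb, the subunit that favours pyruvate, had 1298, 1889, 1869 and 1647 in saline, 1689.8, 1773, 1929 and 1665 in MABsallo and 1746, 933, 1271 and 1665 in MABsallo-VEGF, a difference of 0.09 (SE 0.22, adjusted p = 0.821 from limma). Slc16a3 (MCT4), the lactate exporter of glycolytic cells, had 117, 51.0, 122 and 127 in saline, 28.4, 49.2, 175 and 32.5 in MABsallo and 37.8, 275, 111 and 89.1 in MABsallo-VEGF. Groups overlapped for all 3 genes.

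Of the oxygen sensors, Egln1 (PHD2), the main prolyl hydroxylase of hypoxia-inducible factors, rose after MABsallo. Egln1 counts at 3d were 72.3, 0, 3.57 and 0 in saline, 312, 219, 277 and 5.42 in MABsallo and 64.9, 125, 146 and 0 in MABsallo-VEGF. In each group 1 sample went with another group: saline replicate 6 was high, and MABsallo replicate 4 and MABsallo-VEGF replicate 4 were low. The log2 difference between MABsallo and saline was 4.62 (SE 1.5, adjusted p = 0.0407 from limma) with 24 samples and 5.99 (SE 1.15, adjusted p = 0.00101 from limma) with 22, and the call was kept in 9 of 17 other settings. Egln3 (PHD3), itself a target of the factors, had 203, 306, 479 and 591 in saline, 277, 579.9, 831 and 559 in MABsallo and 606, 492, 494 and 325 in MABsallo-VEGF, a difference of 0.52 (SE 0.35, adjusted p = 0.311 from limma). At 7d Egln3 had 585, 388, 673 and 459 in saline, 366, 546, 357 and 809 in MABsallo and 439, 434, 645 and 498 in MABsallo-VEGF.

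The factors themselves did not pass. Hif1a had normalized counts at 3d of 1398, 1039, 675 and 841 in saline, 1342, 1652, 2114 and 699.8 in MABsallo and 968, 2900.4, 1423 and 842 in MABsallo-VEGF, a difference of 0.50 (SE 0.34, adjusted p = 0.325 from limma) between MABsallo and saline. Epas1 (HIF-2 alpha) had 3619, 5248, 4349 and 4036 in saline, 5978, 4229, 3665 and 3331 in MABsallo and 3434, 4309, 3723 and 4074 in MABsallo-VEGF, a difference of -0.03 (SE 0.26, adjusted p = 0.956 from limma). At 7d Epas1 had 4353, 4172, 5737 and 3622 in saline, 4637, 5771, 2707 and 7893 in MABsallo and 7872, 4678, 4965 and 5413 in MABsallo-VEGF. These factors are controlled mostly by protein stability, which counts of mRNA do not measure.

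Besides Egln3 and the transporters and enzymes above, the targets of the factors tested were Adm, Ddit4, Bnip3 and Ankrd37, of which Adm passed with 24 samples. Adm, the vasodilator peptide adrenomedullin, fell after MABsallo, with 309.9, 2175, 1126 and 662 in saline, 149, 279, 73.9 and 559 in MABsallo and 178, 267, 217 and 1006 in MABsallo-VEGF. Saline replicate 6 overlapped MABsallo, and the log2 difference was -2.04 (SE 0.60, adjusted p = 0.0276 from limma). Ddit4 (REDD1), a stress-induced inhibitor of mTORC1, had 713, 3626, 986 and 897 in saline, 831, 607, 489 and 309 in MABsallo and 1341, 917, 1271 and 668 in MABsallo-VEGF. Its difference was -1.22 (SE 0.49, adjusted p = 0.0877 from limma) with 24 samples and -1.49 (SE 0.52, adjusted p = 0.043 from limma) with 22, and the count tests called it lower with 24 (adjusted p = 0.0408 from edgeR and 0.0246 from DESeq2).

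**Figure D3:**
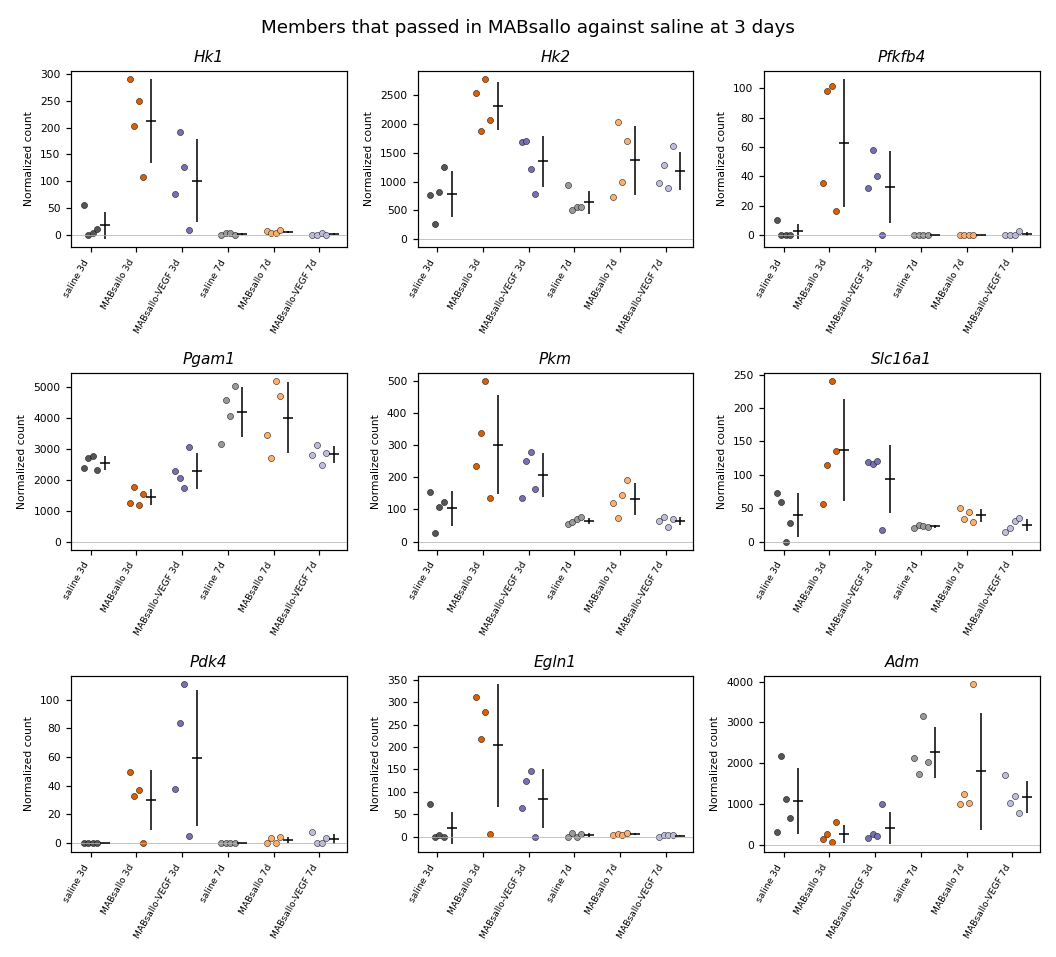
Normalized counts (y axis, linear) of the 9 members that passed in MABsallo against saline at 3d, by group (x axis); points are samples and the bar to their right is the mean with its SD (n = 4). For Hk1, Hk2 and Pgam1 every MABsallo 3d sample is clear of saline 3d; for Pfkfb4 the lowest MABsallo sample and the highest saline sample both rest on 3 reads.

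The levels of other genes moved with these results, and their part in them was not tested. Of 12 striated muscle markers found, 3 passed higher in MABsallo against saline at 3d, and their summed normalized counts were 55558 to 249061 in saline, 133965 to 501974 in MABsallo and 142381 to 281094 in MABsallo-VEGF. Of 8 macrophage markers 4 passed lower, with sums of 11983 to 24306 in saline, 1243 to 13606 in MABsallo and 4493 to 20819 in MABsallo-VEGF. Of 7 endothelial markers 2 passed lower, with sums of 6959 to 8670.2 in saline and 3933 to 7495 in MABsallo. Of 8 adipocyte markers 1 passed lower, with sums of 3319 to 20641 in saline and 3536 to 5914 in MABsallo. For smooth muscle 1 of 8 passed higher, for urothelium and squamous epithelium 1 of 10 passed higher, and for neutrophil (7) and erythroid (6) markers 0 passed. No marker in the table was at 0 in every sample of a group in any list. Genes with a mean normalized count under 200 passed higher in 10.9% and lower in 2.08% of cases in this comparison, and genes at 200 or more in 10.5% and 6.79%; of the 7 members that rose, only Hk2 averaged 200 or more.

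MABsallo-VEGF was compared with the same saline samples, so its values are not independent of those above. With 24 samples 0 of 33 members passed with limma, against 0.0307% of all genes; 7 members had an unadjusted p below 0.05, edgeR called 0 and DESeq2 called 1. With 22 samples 6 members passed, 5 higher (Hk1, Pfkfb4, Slc16a1, Pdk4 and Egln1) and 1 lower (Adm), against 16.4% of all genes, 12.9% higher and 3.51% lower. Leaving out MABsallo-VEGF 3d replicate 4 alone gave 5 members, and leaving out saline 3d replicate 6 alone gave 3. Hk1 differed from saline by 3.15 (SE 1.01, adjusted p = 0.124 from limma) with 24 samples and 5.04 (SE 0.89, adjusted p = 0.000844 from limma) with 22. For Egln1 the difference was 2.96 (SE 1.5, adjusted p = 0.303 from limma) and then 6.01 (SE 1.23, adjusted p = 0.00236 from limma). Pdk4 had the smallest adjusted p of the members with 24 samples, 5.23 (SE 1.10, adjusted p = 0.0733 from limma), and MABsallo-VEGF was at least 5.46-fold above saline. Hk2 differed by 0.92 (SE 0.38, adjusted p = 0.196 from limma) with 24 samples and 1.22 (SE 0.43, adjusted p = 0.0556 from limma) with 22. Markers of other cells moved in the comparison with 22 samples too, and their part in it was not tested: 2 of 12 striated muscle, 1 of 8 smooth muscle and 1 of 10 urothelial and squamous markers passed higher, and 2 of 6 erythroid, 1 of 7 endothelial and 1 of 8 adipocyte markers passed lower, with 0 of 8 macrophage and 0 of 7 neutrophil markers.

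Between MABsallo-VEGF and MABsallo at 3d, 0 members passed with limma, against 0.00614% of all genes, and 2 members had an unadjusted p below 0.05. With 22 samples it was again 0 members, against 0.0184% of all genes. At 7d 0 members passed in MABsallo against saline, in MABsallo-VEGF against saline or in MABsallo-VEGF against MABsallo, where 0% of all genes passed and 1, 5 and 1 members had an unadjusted p below 0.05. The smallest adjusted p of a member at 7d was 0.605 from limma, in MABsallo-VEGF against saline. In these 4 comparisons edgeR and DESeq2 also called 0 members. Whether the effect of treatment differed between 3d and 7d was tested directly: 0 members passed for MABsallo or for MABsallo-VEGF with 24 samples, against 0% of all genes, 5 and 4 members had an unadjusted p below 0.05, and edgeR and DESeq2 called 0. With 22 samples 2 members passed for MABsallo (Hk1 and Pfkfb4, against 3.7% of all genes) and 3 for MABsallo-VEGF (Hk1, Pfkfb4 and Egln1, against 3.69%), all with a higher difference at 3d.

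The other question was how these genes changed with time after injury. In saline 2 members passed between 3d and 7d, Eno1 and Ldhb, both lower at 3d, against 3.83% of all genes, 2.84% higher and 0.995% lower. Neither passed with 22 samples, where 0.19% of all genes did. In MABsallo 13 members passed, 4 higher at 3d (Hk1, Pfkfb4, Pdk4 and Egln1) and 9 lower (Slc2a1, Pfkfb3, Pgam1, Eno1, Ldha, Ldhb, Slc16a3, Ddit4 and Adm), against 30.5% of all genes, 19.3% higher and 11.3% lower. In MABsallo-VEGF 10 passed, 5 higher (Hk1, Pfkfb4, Pkm, Pdk4 and Hif1a) and 5 lower (Slc2a1, Pfkfb3, Ldhb, Ddit4 and Adm), against 20% of all genes, 14.8% higher and 5.21% lower. With 22 samples 14 members passed in MABsallo and 11 in MABsallo-VEGF, against 32% and 26.5% of all genes. The median log2 difference between 3d and 7d was -0.50 over the members in saline, -0.35 in MABsallo and -0.37 in MABsallo-VEGF, and 0.05, 0.06 and 0.05 over all genes tested. That count in MABsallo-VEGF fell to 5, 4 and 6 without MABsallo-VEGF 3d replicate 2, 3d replicate 3 or 7d replicate 11.

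Slc2a1 and Pfkfb3 were lower at 3d than at 7d in both cell-treated groups. Slc2a1 at 7d had 2151, 1058, 3058 and 1138 in saline, 1666, 3033, 1413 and 2801 in MABsallo and 2191, 2459, 2123 and 3124 in MABsallo-VEGF. Its 3d values lay below those of 7d without overlap in both cell-treated groups, a log2 difference of -1.42 (SE 0.35, adjusted p = 0.00387 from limma) in MABsallo and -1.24 (SE 0.35, adjusted p = 0.0147 from limma) in MABsallo-VEGF. Pfkfb3 at 7d had 693, 642, 1742 and 1252 in saline, 691, 1324, 587 and 3768 in MABsallo and 2129, 1192, 1061 and 1135 in MABsallo-VEGF. Its difference was -2.56 (SE 0.47, adjusted p = 0.000454 from limma) in MABsallo and -1.95 (SE 0.47, adjusted p = 0.00553 from limma) in MABsallo-VEGF, both without overlap, and -1.12 (SE 0.47, adjusted p = 0.195 from limma) in saline.

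In lower glycolysis, 2 of 6 members tested passed in MABsallo as lower at 3d. Of 6 tested in lactate and pyruvate handling, 3 passed lower and 1, Pdk4, passed higher. Over all genes tested, 11.3% passed lower and 19.3% higher. Pgam1 at 7d had 3149, 4570.2, 4052 and 5028 in saline, 3435, 2692, 5188 and 4714 in MABsallo and 2800.5, 3141, 2479.5 and 2872 in MABsallo-VEGF, and its 3d value in MABsallo was lower by a log2 difference of -1.45 (SE 0.21, adjusted p = 7.87e-05 from limma). In saline Pgam1 did not pass with limma, although its 3d samples lay below those of 7d without overlap. Both count tests called it lower there (adjusted p = 0.0315 from edgeR and 0.0112 from DESeq2). Eno1 at 7d had 994, 943, 1460.2 and 1248 in saline, 697, 566, 1194 and 1536 in MABsallo and 657, 744, 645 and 653 in MABsallo-VEGF. Eno1 was lower at 3d by -1.22 (SE 0.27, adjusted p = 0.0196 from limma) in saline and -1.26 (SE 0.27, adjusted p = 0.00154 from limma) in MABsallo, in both without overlap. Ldhb at 7d had 2882, 3978, 2894 and 5499.7 in saline, 3218, 3039.7, 3399.7 and 3801 in MABsallo and 2198, 3856, 2504 and 2818 in MABsallo-VEGF. It was the only member to pass in all 3 groups with 24 samples, at -1.15 (SE 0.22, adjusted p = 0.0114 from limma) in saline, -0.93 (SE 0.22, adjusted p = 0.00312 from limma) in MABsallo and -1.03 (SE 0.22, adjusted p = 0.00237 from limma) in MABsallo-VEGF, and 3d and 7d did not overlap in any of them. Ldha at 7d had 1349.6, 1145, 1296 and 1330.1 in saline, 1180.1, 1258, 1643 and 1909 in MABsallo and 1023, 1269, 1136 and 974 in MABsallo-VEGF, and its difference in MABsallo was -0.79 (SE 0.26, adjusted p = 0.0224 from limma). Slc16a3 at 7d had 108, 67.2, 188 and 179 in saline, 115, 192, 209 and 154 in MABsallo and 76.2, 174, 102 and 179.7 in MABsallo-VEGF, and it passed in MABsallo at -1.59 (SE 0.57, adjusted p = 0.0367 from limma) although MABsallo 3d replicate 3 reached the 7d values. That call was kept in 8 of 17 other settings and lost with both count tests (adjusted p = 0.0589 from edgeR and 0.0584 from DESeq2).

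The hypoxia targets Ddit4 and Adm passed as lower at 3d in both cell-treated groups. Ddit4 at 7d had 4066, 886, 4290.2 and 2865 in saline, 1505, 3881, 1988 and 5217 in MABsallo and 5318, 4347, 4736 and 5372 in MABsallo-VEGF. Both cell-treated groups were lower at 3d without overlap, by -2.41 (SE 0.49, adjusted p = 0.000868 from limma) in MABsallo and -2.28 (SE 0.49, adjusted p = 0.00213 from limma) in MABsallo-VEGF. Adm at 7d had 2138, 1735, 3168 and 2025 in saline, 997, 1252, 1023 and 3947 in MABsallo and 1712, 1018, 1207 and 779 in MABsallo-VEGF. Its difference was -2.87 (SE 0.60, adjusted p = 0.00117 from limma) in MABsallo, without overlap, and -1.82 (SE 0.60, adjusted p = 0.0356 from limma) in MABsallo-VEGF, where 3d replicate 4 overlapped the 7d samples. The call of Adm in MABsallo-VEGF was kept in 9 of 17 other settings and lost with both count tests (adjusted p = 0.0684 from edgeR and 0.0532 from DESeq2). Hif1a went up at 3d in MABsallo-VEGF, by 1.02 (SE 0.34, adjusted p = 0.0369 from limma) without overlap, against 7d counts of 704, 736, 602 and 639.9. The call of Hif1a was kept in 9 of 17 other settings, and was lost with scaling to the same total and without any 1 of the 7d samples. Hif1a at 7d had 551, 714, 988 and 456 in saline and 725, 854, 869 and 697 in MABsallo. In MABsallo only DESeq2 called Hif1a higher at 3d (adjusted p = 0.0708 from edgeR and 0.0427 from DESeq2).

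Genes near the limit of detection at 7d gave lower bounds. Hk1 at 3d was at least 23.2-fold its 7d level in MABsallo and at least 10.5-fold in MABsallo-VEGF, with fitted log2 differences of 5.08 (SE 1.01, adjusted p = 0.000755 from limma) and 5.53 (SE 1.01, adjusted p = 0.000682 from limma). Pfkfb4 was at least 6.86-fold higher in MABsallo and at least 3.43-fold in MABsallo-VEGF. Pdk4 at 7d had 0, 0, 0 and 0 in saline, 0, 3.31, 0 and 4.15 in MABsallo and 7.26, 0, 0 and 3.15 in MABsallo-VEGF, and at 3d it was at least 3.26-fold higher in MABsallo and at least 6.19-fold in MABsallo-VEGF. Egln1 at 7d had 0, 7.47, 0 and 6.29 in saline, 3.10, 6.62, 3.34 and 8.30 in MABsallo and 0, 2.85, 3.10 and 3.15 in MABsallo-VEGF, and at 3d it was at least 22.2-fold higher in MABsallo, with an adjusted p of 0.0391 from limma. In MABsallo-VEGF Egln1 did not pass over time with limma and 24 samples, and 3d replicate 4, at 0, overlapped the 7d samples. Both count tests called it higher at 3d there (adjusted p = 0.0132 from edgeR and 0.00318 from DESeq2). The days overlapped in MABsallo for Egln1 and Pdk4, where 3d replicate 4 had 5.42 and 0. In MABsallo-VEGF they overlapped for Pdk4 and Pfkfb4, where 3d replicate 4 had 4.45 and 0. In MABsallo the calls over time were kept in 7 of 16 other settings for Pdk4 and in 8 of 17 for Egln1. Pkm rose at 3d in MABsallo-VEGF by 1.63 (SE 0.47, adjusted p = 0.0169 from limma), without overlap. In MABsallo Pkm did not pass over time with limma and the days overlapped. Both count tests called it higher at 3d there (adjusted p = 0.0454 from edgeR and 0.0198 from DESeq2).

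**Figure D4:**
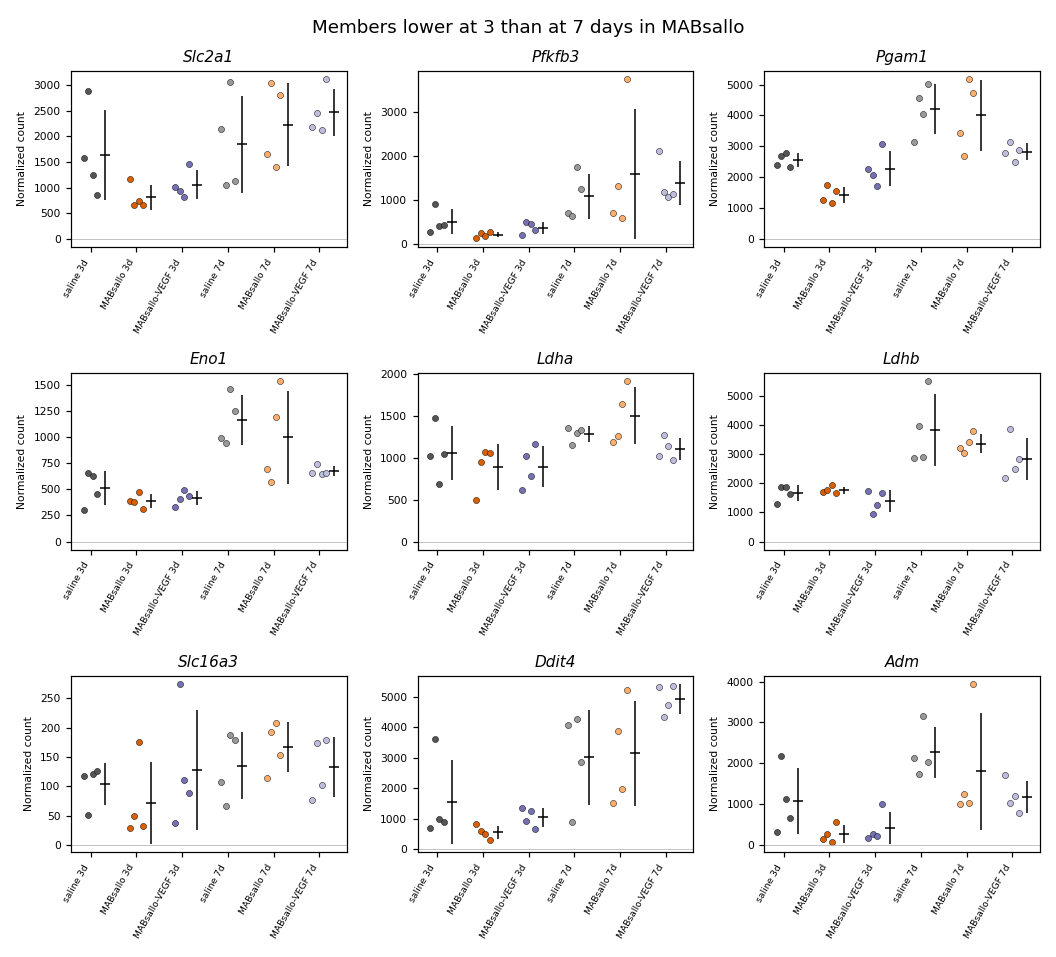
Normalized counts (y axis, linear) by group (x axis) of the 9 members that were lower at 3d than at 7d in MABsallo; points are samples and the bar is the mean with its SD (n = 4). In MABsallo the 3d samples lie below all 7d samples for each gene except Slc16a3.

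Markers of other cells moved with time as well, and their part in these differences was not tested. For adipocytes, 7 of 8 markers passed lower at 3d in MABsallo, 4 of 8 in saline and 0 of 8 in MABsallo-VEGF. Their summed normalized counts at 3d and 7d were 3536 to 5914 and 12612 to 72975 in MABsallo, 3319 to 20641 and 16682 to 53755 in saline, and 4354 to 8676 and 7424 to 12459.8 in MABsallo-VEGF. For smooth muscle, 2 of 8 markers passed lower at 3d in saline, and 1 higher and 2 lower in each cell-treated group. The smooth muscle sums were 81162 to 119486 and 168031 to 171422 in MABsallo, 16807 to 150767 and 138662 to 271800 in saline, and 53140 to 104002 and 99852 to 239617 in MABsallo-VEGF. In MABsallo 3 of 8 macrophage and 1 of 7 neutrophil markers passed lower at 3d, and in MABsallo-VEGF 0 of 8 macrophage markers passed and 1 of 7 neutrophil markers passed higher. Among 10 urothelial and squamous markers, 2 passed lower at 3d in saline, and 2 higher and 2 lower in MABsallo. Among 7 endothelial markers, 2 passed higher at 3d in saline and 1 lower in each cell-treated group. Among 12 striated muscle markers, 2 passed higher at 3d in MABsallo. Genes with a mean under 200 passed higher at 3d in MABsallo in 20.8% and lower in 4.12% of cases, and genes at 200 or more in 17.9% and 18.2%.

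Of the muscle isoforms Slc2a4, Pfkm, Pgam2 and Eno3, none passed in any comparison with 24 or 22 samples. Pgam2 had normalized counts at 3d of 461, 862, 518 and 2748 in saline, 525, 1855, 3628 and 2734 in MABsallo and 1336, 1017, 1413 and 1220.0 in MABsallo-VEGF, and at 7d of 2327, 1312, 472 and 1843, 700.0, 3136, 1124 and 2619 and 979, 2827, 3184 and 1346. Eno3 had 881, 2799, 1315 and 4441 in saline, 1001, 2407, 3351 and 5403 in MABsallo and 3082, 2009, 1867 and 2814 in MABsallo-VEGF at 3d, and 6359, 2444, 1068 and 3613, 1208, 4930.4, 1855 and 6192 and 2572, 4758, 6309 and 3105 at 7d. For Pgam2 and Eno3 all groups overlapped. Pfkm had 692, 1164, 1308 and 1974 in saline, 1001, 1690.5, 2631 and 2169.9 in MABsallo and 1465, 833, 1130.1 and 1367 in MABsallo-VEGF at 3d, and 2517, 1526, 636 and 2239, 960.2, 2742, 1286 and 2727 and 1611, 2453, 2408 and 2292 at 7d. Its general counterpart Pfkl had 489, 596, 465 and 493, 462, 514, 563 and 379.7 and 535, 292, 454 and 414 at 3d and 507, 599.9, 573 and 604, 431, 546, 647 and 278 and 461, 608, 493 and 835 at 7d. Slc2a4 at 7d had 2289.9, 1424, 1859 and 1773 in saline, 1896, 3019.8, 1304 and 2021 in MABsallo and 1807, 2938, 1682 and 1958 in MABsallo-VEGF. In MABsallo-VEGF, Slc2a4 and Pfkm lay lower at 3d than at 7d in every sample without passing, at -1.0 (SE 0.43, adjusted p = 0.107 from limma) and -0.88 (SE 0.40, adjusted p = 0.128 from limma). Over all samples Pfkl ran from 278 to 835 and Pfkm from 636 to 2742.

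Ratios within a sample are given as a description with no test. The log2 ratio of Pgam2 to Pgam1 was -1.55 ± 1.25 (SD, n = 4) in saline at 3d, 0.32 ± 1.23 in MABsallo and -0.85 ± 0.44 in MABsallo-VEGF. At 7d it was -1.70 ± 1.10 in saline, -1.28 ± 1.20 in MABsallo and -0.60 ± 0.86 in MABsallo-VEGF. For Eno3 to Eno1 it was 1.99 ± 0.95, 2.74 ± 1.12 and 2.54 ± 0.55 at 3d in the same order.

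The levels of the isoforms were compared with the striated muscle markers of the sample. Over the 24 samples, the log2 value of each isoform was set against the log2 sum of the striated muscle markers, a relation examined after the values were seen, for 8 isoforms and with permutation p-values adjusted over the 8. Samples were shuffled across all 6 groups, so differences between groups enter these p-values. Pgam2 had a Pearson r of 0.885 (permutation p = 1e-05, the smallest that 100000 permutations give, adjusted 4e-05) and a Spearman rho of 0.889 (permutation p = 1e-05, adjusted 4e-05). For Eno3 these were 0.859 and 0.884 (permutation p = 1e-05 and adjusted 4e-05 for each), and for Pfkm 0.784 (permutation p = 3e-05, adjusted 8e-05) and 0.817 (permutation p = 2e-05, adjusted 5.33e-05). With the 2 samples farthest from the median left out, Pearson r was 0.892 for Pgam2, 0.834 for Eno3 and 0.759 for Pfkm. Within the 12 samples of 3d it was 0.885, 0.85 and 0.779, and within the 12 of 7d 0.919, 0.974 and 0.908. Slc2a4 had an r of 0.501 (permutation p = 0.0127, adjusted 0.0255) and a rho of 0.488 (permutation p = 0.0169, adjusted 0.0338). Its r was 0.353 without the 2 samples farthest from the median, saline 3d replicate 6 and MABsallo 3d replicate 4, 0.557 within 3d and 0.527 within 7d. The general isoforms had r between -0.233 and -0.0157, with permutation p between 0.274 and 0.941, over the 24 samples. Within 3d and within 7d r was -0.652 and 0.288 for Slc2a1, -0.509 and -0.327 for Pgam1, -0.0859 and -0.236 for Pfkl, and -0.206 and -0.113 for Eno1, with no p computed within a day. With the mean of each group taken out, r was 0.891 for Pgam2, 0.94 for Eno3, 0.833 for Pfkm and 0.538 for Slc2a4. For the general isoforms it then ran from -0.175 to 0.0462, and no p was computed for these values.

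**Figure D5:**
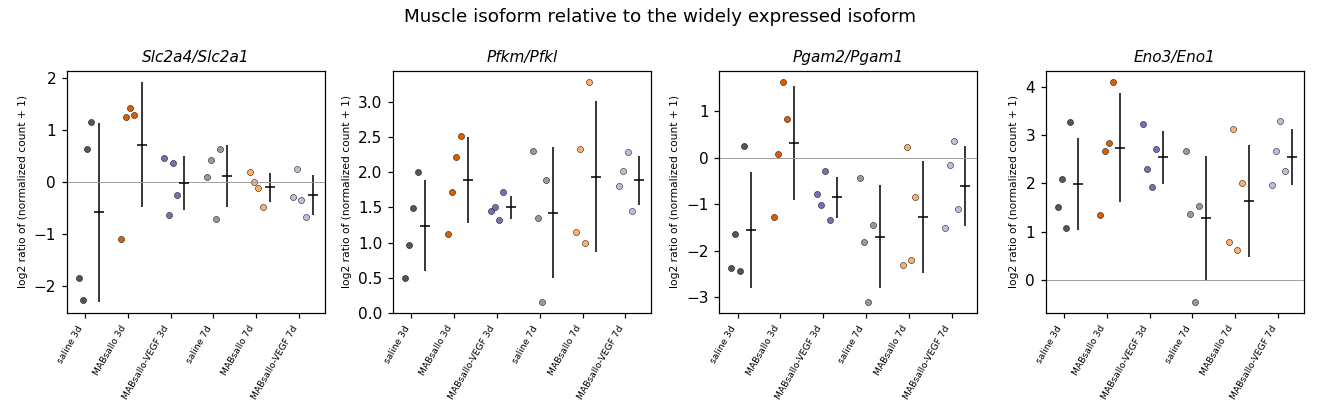
Log2 ratio of the muscle isoform to the general isoform (y axis, normalized count + 1) in each sample by group (x axis) for 4 pairs; points are samples and the bar is the mean with its SD (n = 4). The groups overlap in every pair.

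The remaining members passed in no comparison with limma and 24 samples. Count tests called Gpi lower at 3d than at 7d in MABsallo-VEGF (adjusted p = 0.0307 from edgeR and 0.0288 from DESeq2). There Pdk1 was called lower by edgeR only (adjusted p = 0.0372 from edgeR and 0.0630 from DESeq2). In saline Bnip3 was called lower at 3d by DESeq2 only (adjusted p = 0.0553 from edgeR and 0.0312 from DESeq2). Over the 24 samples, normalized counts ran from 2208 to 3944 for Gpi (glucose-6-phosphate isomerase) and 7569 to 22041 for Aldoa (aldolase of muscle and most tissues), to 97.6 to 1135 for Aldoc, a second aldolase, and 1477 to 7767 for Pgk1, the first ATP-yielding step. Pfkp, the platelet phosphofructokinase, ran from 15.5 to 240.0 and Pdk1, a pyruvate dehydrogenase kinase induced by hypoxia, from 179 to 544. Bnip3, a mitophagy receptor, ran from 44.1 to 784 and Ankrd37, a hypoxia target, from 6.89 to 218. Tpi1 ran from 0 to 21.7, at most 8 reads, and was too low to read a level for an enzyme that most cells use.

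Other genes of the same pathways were described from lists that hold none of the members. Of 11 other glycolysis enzymes tested and 13 genes of pyruvate dehydrogenase and monocarboxylate transport, 0 passed in MABsallo against saline at 3d with limma, and 1 of each list had an unadjusted p below 0.05. Of 13 glycogen genes 4 passed, all higher, where 15.1% of all genes passed; with 22 samples 3 passed higher and 2 lower. Pygb, the brain form of glycogen phosphorylase, had 53.8 ± 74.3 (SD, n = 4) in saline and 470.4 ± 288 (SD, n = 4) in MABsallo, a log2 difference of 4.50 (SE 1.27, adjusted p = 0.0225 from limma). Phkb, a subunit of phosphorylase kinase, had 169.9 ± 106 (SD, n = 4) and 767 ± 248 (SD, n = 4), a difference of 2.39 (SE 0.53, adjusted p = 0.0087 from limma). Ppp1r3a, which targets a phosphatase to glycogen in muscle, had 229 ± 42.9 (SD, n = 4) and 931 ± 445 (SD, n = 4), a difference of 1.90 (SE 0.49, adjusted p = 0.016 from limma).

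Of 23 other hypoxia response genes 2 passed higher and 1 lower in the same comparison, where 10.7% of all genes passed higher and 4.48% lower. With 22 samples 5 passed higher and 2 lower, against 15.8% and 6.82% of all genes. Arnt, the partner subunit of the hypoxia-inducible factors, had 14.1 ± 8.86 (SD, n = 4) in saline and 101 ± 36.7 (SD, n = 4) in MABsallo, a difference of 2.90 (SE 0.98, adjusted p = 0.0481 from limma). Hif3a, a further alpha subunit, was at 0 in every saline sample and 14.1 ± 9.57 (SD, n = 4) in MABsallo, on 1 to 5 reads a sample, with a fitted difference of 3.70 (SE 0.72, adjusted p = 0.00665 from limma). That mean lay below 3 reads in each MABsallo 3d sample, 16.3 to 27.7 normalized counts, so no lower bound of the fold is given. Ndrg1, a stress-induced gene used as a hypoxia marker, had 2404 ± 1612 (SD, n = 4) and 785 ± 195 (SD, n = 4), a difference of -1.44 (SE 0.36, adjusted p = 0.0146 from limma). In MABsallo between 3d and 7d, 5 of these 23 genes passed higher and 6 lower, 3 of 13 glycogen genes passed higher, 2 of 11 other glycolysis enzymes passed lower, and 2 of 13 genes of pyruvate dehydrogenase and monocarboxylate transport passed higher and 3 lower, where 19.3% of all genes passed higher and 11.3% lower.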

How the data were processed

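Urethral RNA was made by the authors into QuantSeq 3ʹ libraries (single-end reads), adapters were trimmed, reads were aligned to Rnor6.0 with HISAT2, multi-mapped reads were discarded, and reads per gene were counted with HT-seq Count. The deposited signal is a normalized gene count: counts divided by DESeq2 size factors. Discarding multi-mapped reads can lower genes with near-identical copies; whether it did so for Tpi1, Pkm or Hk1 was not tested. In every sample 100% of values were whole multiples of 1 read (tolerance 0.01), so reads were recovered.

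Log2(normalized count + 1) was tested by limma (version 3.58.1, R 4.3.3; moderated with an intensity trend) for genes with a mean of at least 2, in 1 fit of 6 groups and 24 samples, two-sided with Benjamini-Hochberg adjustment over all genes. Recovered reads were tested with edgeR 4.0.16 and with DESeq2 1.42.0 and ashr 2.2.63. A group whose samples all had at most 3 reads on a gene was taken as at the limit of detection, for counting error only. The members and lists were chosen with earlier results of these data known. Values in every sample are given for members with an adjusted p below 0.05 and a log2 difference beyond 1 in any comparison of 2 groups, the isoform pairs, Hif1a, Epas1, Egln3, Adm, Ldha and Pdk4, and the largest difference of each role in MABsallo against saline at 3d. The set of 22 samples, the muscle correlations and the split at a mean of 200 were chosen after seeing the data.

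The scripts were tested on simulated counts with dispersions estimated from these data. A first version, with a hand-picked dispersion, missed the recovery set for it. Recovery followed the dispersion and level, so the pass criterion was changed after that result to bias, sign and calls among unchanged genes. In these simulations limma gave slightly more small p-values among unchanged genes than its nominal rate.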

Additional observations from a re-analysis of the deposited data

Results flagged for a closer look

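Among 130 sets of 4 samples of the members given by sample, 11 held 1 sample far from the other 3 in log2(normalized count + 1). The cut would set apart about 1 in 20 sets of independent, normally distributed values. The sets here share samples and some hold counts of 0, so that rate need not hold for them. Of the 11, 3 were MABsallo-VEGF 3d replicate 4, with normalized counts of 0 for Pfkfb4, 17.8 for Slc16a1 (117 to 121 in the others) and 0 for Egln1. MABsallo 3d replicate 4 stood apart with 0 for Pdk4 and 5.42 for Egln1 (219 to 312 in the others), and MABsallo 3d replicate 1 with 489.9 for Ldha (952 to 1071 in the others). Saline 3d replicate 8 had 51.0 for Slc16a3 (117 to 127 in the others). At 7d MABsallo replicate 13 had 3947 for Adm (997 to 1252 in the others). MABsallo-VEGF 7d replicate 6 had 1611 for Pfkm (2292 to 2453) and 2129 for Pfkfb3 (1061 to 1192), and replicate 7 had 744 for Eno1 (645 to 657). Replicates 6 and 7 are the samples that the labels name as recovered.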

How the results depend on the processing

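Of the 34 calls of a member in a comparison, none reversed under any alternative: 265 of 300 checks kept the call and 35 lost it, and with 1 sample left out 198 of 272 kept it and 74 lost it. The number of members passing in MABsallo against saline at 3d (9) was 0 when only the groups compared were fitted. In MABsallo-VEGF against saline at 3d (0) it was 1 with a pseudocount of 5, 1 with DESeq2 and 6 with 22 samples. In saline between 3d and 7d (2) it was 0 with 22 samples, 0 when only the groups compared were fitted and 4 with DESeq2. For the difference of the treatment effect between days (0 each) it was 2 for MABsallo and 3 for MABsallo-VEGF with 22 samples. The cause was not tested. Leaving out 1 sample gave 3 (without saline 3d replicate 8) to 11 (without saline 3d replicate 6) in MABsallo against saline at 3d, and 0 to 5 (without MABsallo-VEGF 3d replicate 4) in MABsallo-VEGF against saline at 3d. It gave 0 (without saline 3d replicate 6 or saline 7d replicate 5) to 5 (without saline 3d replicate 8) in saline over time, 9 (without MABsallo 3d replicate 1) to 16 (without MABsallo 3d replicate 4) in MABsallo over time, 4 (without MABsallo-VEGF 3d replicate 3) to 11 (without MABsallo-VEGF 3d replicate 4) in MABsallo-VEGF over time, and 0 to 0 in the other 6 comparisons. Scaling to the same total moved the median of all genes to -0.19 in MABsallo against saline at 3d, and quantile normalization to -0.14. There the members split 7 higher and 2 lower as deposited, 5 and 5 with the same total, 6 and 5 with quantiles, 4 and 4 with edgeR, in which Pfkfb4 and Pdk4 were not tested, and 7 and 4 with DESeq2. Depth limits the low genes: at 3 reads the limit was at most 27.7 normalized counts.

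MABsallo-VEGF and MABsallo at 3d share replicate numbers 1 to 4. With the replicate number as a block, 0 members passed, as without it. Deviations of samples with the same number correlated at 0.222, 0.151, 0.0734 and 0.254, all above 0. Samples with different numbers were not compared, so these values cannot tell whether the numbers pair the samples. The main fit used no such block.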
